A study of Mus musculus and Rattus norvegicus with 28 samples.

Results

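The genes described here carry out the lower part of glycolysis and the handling of lactate in cardiomyocytes: Aldoa, Pgam1, Pgam2, Eno1, Eno3, Pkm, Ldha, Ldhb, Slc16a1 and Slc16a3. These 10 genes were chosen by name, and all 10 were found among the 55450 mouse and the 32623 rat genes listed. RNA-seq covered cardiomyocytes of the left ventricle of wild-type C57BL/6 mice, males and females, at embryonic day 18.5 (E18.5) and postnatal days 1 (P1), 3 (P3) and 7 (P7). Each age had 2 RNA-seq libraries, and ATAC-seq, which maps accessible chromatin, covered the same ages, also in pairs of libraries. RNA-seq of ventricular cells of Sprague Dawley rats taken at P1 and cultured compared 3 libraries of cells given 100 nM trichostatin A (TSA), an inhibitor of histone deacetylases, 1 day after plating with 3 libraries given its solvent DMSO. The mouse and rat cells were enriched by preplating, in which cells that attach quickly to plastic are left behind, so other cells of the ventricle could remain. By staining for the cardiomyocyte protein troponin T, the paper described its isolated mouse cells as highly pure, also at P7. The RNA levels of cell-type markers are given below. None of the labels said whether replicates came from separate litters or cultures, so p-values measure only the spread between these libraries.

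Aldolase splits a 6-carbon sugar phosphate, phosphoglycerate mutase and enolase rearrange its products, and pyruvate kinase makes pyruvate and ATP. Lactate dehydrogenase then interconverts pyruvate and lactate, and monocarboxylate transporters carry lactate across the plasma membrane. Several of these steps have isozymes encoded by separate genes: Pgam2 and Eno3 encode the muscle forms of mutase and enolase, while Pgam1 and Eno1 encode the forms found in most tissues. Ldhb encodes the H subunit that prevails in heart and Ldha the M subunit that prevails in skeletal muscle. Slc16a1 encodes MCT1, a transporter of many tissues, and Slc16a3 encodes MCT4, common in cells with high glycolysis. Pkm gives the M1 form in adult muscle and the M2 form in fetal and dividing tissues by splicing in one of 2 exons.

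The choice between the Pkm forms rests on those exons, which are shown because the splicing result below turns on them. Each is 167 bases long and lies on the plus strand of mouse chromosome 9 (GRCm38), the M1 exon at chr9:59675029-59675195 and the M2 exon at chr9:59675568-59675734, each with ag before it and gt after it. Capitals mark the 64 positions at which the exons differ when set side by side without gaps, which left 61.7% of positions the same.
Pkm M1 exon: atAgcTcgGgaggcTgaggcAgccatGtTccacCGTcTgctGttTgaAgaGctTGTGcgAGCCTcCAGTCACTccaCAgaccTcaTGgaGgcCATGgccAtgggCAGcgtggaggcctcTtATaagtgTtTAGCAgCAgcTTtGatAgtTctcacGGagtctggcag
Pkm M2 exon: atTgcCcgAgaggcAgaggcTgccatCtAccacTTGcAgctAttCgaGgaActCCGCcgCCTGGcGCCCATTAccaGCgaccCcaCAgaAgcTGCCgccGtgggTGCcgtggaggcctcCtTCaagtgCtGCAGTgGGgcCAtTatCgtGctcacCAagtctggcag

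Of the promoters, 4 are shown for the isozyme pairs with the widest shifts: the muscle forms of mutase and enolase, and both lactate dehydrogenase genes. Each run holds the 250 bases before a RefSeq start of the gene (GRCm38.p6). Pgam2 lies on the minus strand at chr11:5803797-5804046 and Eno3 on the plus strand at chr11:70656926-70657175. Ldhb lies on the minus strand at chr6:142507958-142508207 and Ldha on the plus strand at chr7:46845554-46845803. Capitals mark matches, on either strand, to ACGTG and GCGTG (cores of the hypoxia response element), CAGCTG (an E-box of muscle regulators), GGGCGG (the GC box) and the MEF2 consensus.
Pgam2 promoter: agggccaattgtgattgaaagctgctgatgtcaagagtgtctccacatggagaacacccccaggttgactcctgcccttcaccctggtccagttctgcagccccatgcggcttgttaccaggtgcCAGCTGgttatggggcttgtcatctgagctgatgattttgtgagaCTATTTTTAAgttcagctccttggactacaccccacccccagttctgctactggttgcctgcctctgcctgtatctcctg
Eno3 promoter: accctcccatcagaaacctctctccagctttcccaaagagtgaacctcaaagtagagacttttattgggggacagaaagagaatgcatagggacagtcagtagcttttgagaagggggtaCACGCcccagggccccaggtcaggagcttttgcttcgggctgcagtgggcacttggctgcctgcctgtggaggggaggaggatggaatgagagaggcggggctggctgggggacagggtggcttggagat
Ldhb promoter: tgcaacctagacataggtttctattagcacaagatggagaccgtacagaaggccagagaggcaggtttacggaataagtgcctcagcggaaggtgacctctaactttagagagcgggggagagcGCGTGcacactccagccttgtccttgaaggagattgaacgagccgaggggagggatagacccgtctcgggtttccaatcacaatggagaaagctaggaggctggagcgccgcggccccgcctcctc
Ldha promoter: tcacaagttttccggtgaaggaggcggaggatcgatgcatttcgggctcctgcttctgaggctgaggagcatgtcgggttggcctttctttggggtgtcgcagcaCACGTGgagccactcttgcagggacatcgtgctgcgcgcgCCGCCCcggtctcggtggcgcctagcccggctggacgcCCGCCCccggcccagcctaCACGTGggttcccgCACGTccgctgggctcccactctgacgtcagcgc

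The Pgam2 window held a CAGCTG 125 bases and a MEF2 consensus 80 bases before the start. CAGCTG matched in 13.0% and the MEF2 consensus in 2.92% of the same windows of 32851 RefSeq promoters. Ldha held ACGTG matches beginning 145, 144, 48, 47 and 34 bases before its start, the first 4 of them being 2 CACGTG palindromes read on both strands, and GGGCGG at 105 and 67 bases. ACGTG was found in 16.6% and GGGCGG in 32.7% of all promoters. A further RefSeq start of Ldha, at position 46847082, is not printed, and its window held only 1 match, to GCGTG. Eno3 and Ldhb each held 1 match, to GCGTG, which 28.2% of promoters also held. These are matches of letters and not measured binding sites.

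Values below are FPKM, fragments scaled by transcript length and library size, so that levels of different genes can be set side by side. A gene was called changed at an adjusted p under 0.05 with a log2 change over 1 in size, in a limma fit of log2(FPKM + 1) over all 13979 mouse genes with at least 1 FPKM in at least 2 libraries. All 10 genes passed that filter. Depth, estimated from coverage, was about 29320000 to 37500000 reads in the mouse libraries and 28210000 to 38490000 in the rat libraries. Cell-type markers moved strongly with age in the mouse libraries. The summed FPKM of 15 cardiomyocyte markers such as Tnnt2 and Myh6 was 24760 and 31200 at E18.5 and 2166 and 955 at P7, with 14 of 15 called lower at P7 and 1 and 2 of them under 1 FPKM there. The sum of 11 fibroblast markers was 489 and 490 at E18.5 and 3102 and 3831 at P7, with 10 of 11 called higher. Erythroid markers summed to 29050 and 35400 at E18.5 and to between 4.71 and 41.1 in the later libraries. In bulk RNA, fewer cells of a type and less RNA per cell cannot be told apart. The part of these marker shifts in the results below was not tested.

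From E18.5 to P7 the muscle isozymes and Ldhb fell by more than 4 log2 units, Aldoa and Slc16a1 fell by less than 2, and Pgam1 and Slc16a3 rose. At P7 against E18.5, 5 of the 10 genes were called lower, beside 12.3% of all genes tested, and 2 were called higher, beside 15.4%. At P3, 5 were called lower, beside 8.88% of genes tested, and none higher. At P1 a single gene, Ldhb, was called lower, beside 6.06% of genes tested. The median log2 change at P7 was -0.54 over the 10 genes and 0.15 over all genes tested. Every comparison with E18.5 shares the same 2 libraries.

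The order of the levels changed with age. At E18.5 Aldoa led with a mean of 1774 FPKM, followed by Ldha (902), Ldhb (866) and Pkm (830), whose libraries overlapped. Eno1 (575), Eno3 (511) and Pgam2 (466) came next, each overlapping its neighbour, and Pgam1 (135), Slc16a1 (42.3) and Slc16a3 (21.2) were lowest and separate. At P7 Pkm (1164) and Eno1 (1116) led and overlapped, Ldha (898) and Aldoa (833) overlapped, and Pgam1 (366) and Slc16a3 (88.2) followed, each separate. Ldhb (40.8), Eno3 (30.9), Pgam2 (23.0) and Slc16a1 (13.6) stood at the bottom, each overlapping its neighbour.

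**Figure D1:**
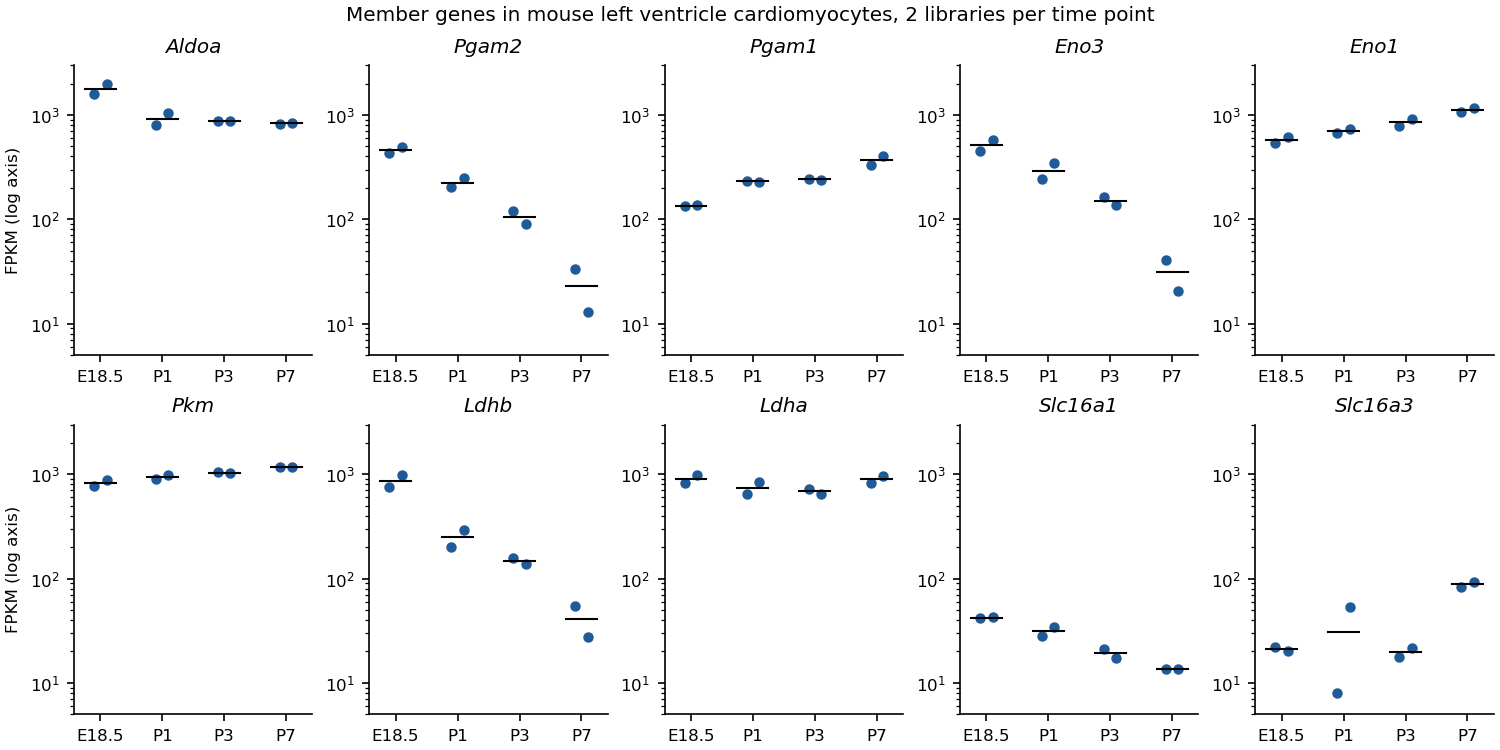
FPKM on a log axis of the 10 genes in each mouse RNA-seq library at E18.5, P1, P3 and P7; points are libraries (2 per time point) and bars their means. Pgam2, Eno3 and Ldhb step down at each time point, to means of 23.0, 30.9 and 40.8 at P7, while Ldha ends at 898 from 902.

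Pgam2, the muscle phosphoglycerate mutase, stood at 434 and 498 FPKM in the E18.5 libraries, 203 and 247 in those of P1, 120 and 90.2 in those of P3, and 33.3 and 12.8 in those of P7. Libraries of different ages did not overlap, and the P7 pair was the widest apart as a ratio. Its log2 change was -4.42 (SE 0.37, adjusted p = 4.48e-05) at P7 and -2.15 (adjusted p = 0.00207) at P3. At P1 the change was -1.05 with an adjusted p of 0.0504, on the threshold.

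Pgam1, the mutase of most tissues, went the other way, with 134 and 137 FPKM in the E18.5 libraries, 235 and 226 in those of P1, 245 and 240 in those of P3, and 329 and 404 in those of P7. The E18.5 libraries lay below all others and the P7 libraries above all others. Its log2 change was 1.42 (SE 0.13, adjusted p = 6.14e-05) at P7. At P1 and P3 the changes were 0.76 and 0.84, with adjusted p-values of 0.00258 and 0.00118 but under the fold required; both passed it in TPM, at 1.00 and 1.09. A pseudogene, Pgam1-ps2, was listed at 16.2 to 44.7 FPKM, so reads of near-identical sequence could be split between it and Pgam1.

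Eno3, the muscle enolase, was at 450 and 572 FPKM in the E18.5 libraries, 242 and 344 in those of P1, 163 and 138 in those of P3, and 41.1 and 20.7 in those of P7. No library of one age overlapped another age. It fell by 4.07 on the log2 scale at P7 (SE 0.31, adjusted p = 3.16e-05) and by 1.75 at P3 (adjusted p = 0.00226). At P1 the difference was -0.81 with an adjusted p of 0.0652.

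Eno1, the enolase of most tissues, was at 538 and 613 FPKM in the E18.5 libraries, 672 and 742 in those of P1, 789 and 906 in those of P3, and 1064 and 1168 in those of P7. Each time point lay above the one before it without overlap. The log2 change at P7 was 0.96 (SE 0.14, adjusted p = 0.000617), just under the fold required. It was 1.22 and called in TPM, 1.13 and called in a voom fit, and called without E18.5 replicate 2 (1.05) or P7 replicate 1 (1.02). The copy Eno1b was listed at 2.69 to 8.32 FPKM.

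Ldhb, the heart subunit of lactate dehydrogenase, had the largest fall of the 10 genes at P1 and P3. It was at 756 and 975 FPKM in the E18.5 libraries, 201 and 295 in those of P1, 159 and 137 in those of P3, and 54.1 and 27.4 in those of P7. All time points were separate, and the step over birth took the mean from 866 to 248. The log2 changes were -1.81 (SE 0.31, adjusted p = 0.0029) at P1, -2.53 (adjusted p = 0.00044) at P3 and -4.44 (adjusted p = 2.6e-05) at P7.

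Ldha, the muscle subunit, showed no such fall. It was at 819 and 986 FPKM in the E18.5 libraries, 643 and 847 in those of P1, 723 and 653 in those of P3, and 828 and 968 in those of P7. The libraries of E18.5, P1 and P7 overlapped, and the P3 pair lay below the E18.5 pair. At P7 the log2 difference was -0.004 (SE 0.17, adjusted p = 0.984), with a sign that depended on the scale, 0.26 in TPM. 

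Aldoa, the main aldolase of muscle, was the most abundant of the 10 at E18.5, with 1580 and 1969 FPKM. The P1 libraries held 803 and 1047, those of P3 870 and 879, and those of P7 828 and 838. The E18.5 pair lay above every later library, and the later pairs at P1, P3 and P7 were close to each other. The log2 change was -0.94 at P1 (adjusted p = 0.00323, under the fold required), -1.01 at P3 (adjusted p = 0.00168) and -1.08 (SE 0.17, adjusted p = 0.000888) at P7. The P3 and P7 calls sat near the fold limit and were lost in TPM, at -0.76 and -0.82, and without E18.5 replicate 2, at -0.85 and -0.92. Transcripts from the start at position 126799254 of chromosome 7 made up 89.5 to 93.0% of Aldoa in every library.

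Pkm as a whole went from 771 and 888 FPKM in the E18.5 libraries through 899 and 988 in those of P1 and 1043 and 1025 in those of P3 to 1162 and 1166 in those of P7. The pairs did not overlap between ages, but the log2 change at P7 was only 0.49 (SE 0.13, adjusted p = 0.0112) and no comparison reached the fold required. 

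Slc16a1, the MCT1 transporter, was at 41.5 and 43.0 FPKM in the E18.5 libraries, 28.0 and 34.2 in those of P1, 21.0 and 17.4 in those of P3, and 13.6 and 13.5 in those of P7. It stepped down without overlap at each age. The log2 change was -1.11 at P3 (adjusted p = 0.00063) and -1.57 (SE 0.15, adjusted p = 7.59e-05) at P7. The P3 call was lost in TPM (-0.88) and without P3 replicate 2 (-0.98).

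Slc16a3, the MCT4 transporter, was at 22.0 and 20.4 FPKM in the E18.5 libraries, 8.05 and 52.8 in those of P1, 17.8 and 21.4 in those of P3, and 83.8 and 92.6 in those of P7. The P7 pair lay above all others, and the P1 libraries stood far apart. Its transcript ENSMUST00000070653, which led in the other 7 libraries, was listed at 0 in P1 replicate 1 and at 46.9 in P1 replicate 2. The log2 change at P7 was 2.01 (SE 0.65, adjusted p = 0.0308). That call was lost without any 1 of the 4 libraries of E18.5 and P7, with adjusted p-values of 0.0787 to 0.117, and without the filter on low values (0.111).

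Between postnatal ages, the same direction held for the falling genes. At P7 against P1, 4 of the 10 genes were called lower, beside 5.46% of genes tested: Pgam2 (-3.37), Eno3 (-3.26), Ldhb (-2.63) and Slc16a1 (-1.13) on the log2 scale. The Slc16a1 call was lost without P1 replicate 2 (-0.99). At P7 against P3, Eno3 (-2.32), Pgam2 (-2.27) and Ldhb (-1.91) were called lower, 3 of 10 beside 2.2%. At P3 against P1 none of the 10 was called, beside 0.0143% of genes tested.

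The ratio of 2 isozymes within a library hardly depends on how that library was scaled. The log2 ratio of Eno3 to Eno1, each with 1 FPKM added, had a mean of -0.18 in the E18.5 libraries and means of -1.29, -2.49 and -5.21 in the 3 later pairs, in order of age. Pgam2 to Pgam1 went from 1.77 before birth through -0.04 and -1.21 to -4.07 at P7, so that the muscle form was the more abundant mutase at E18.5 and the minor one at P7. Ldhb to Ldha went from -0.06 through -1.60 and -2.21 to -4.50. An exact permutation test over all 105 divisions of the 8 libraries into 4 pairs gave p = 0.00952 for each of these ratios, the smallest it can give, and an adjusted p of 0.0119 over the 5 ratios tested (exact test, 2 libraries per time point).

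Slc16a3 to Slc16a1 had mean log2 ratios of -0.96, -0.53, 0.03 and 2.61 in order of age. Here the exact permutation test gave p = 0.0857, also after adjustment. Without P1 replicate 1 or P1 replicate 2, the adjusted p-values of the exact test were 0.019 and 0.0119.

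**Figure D2:**
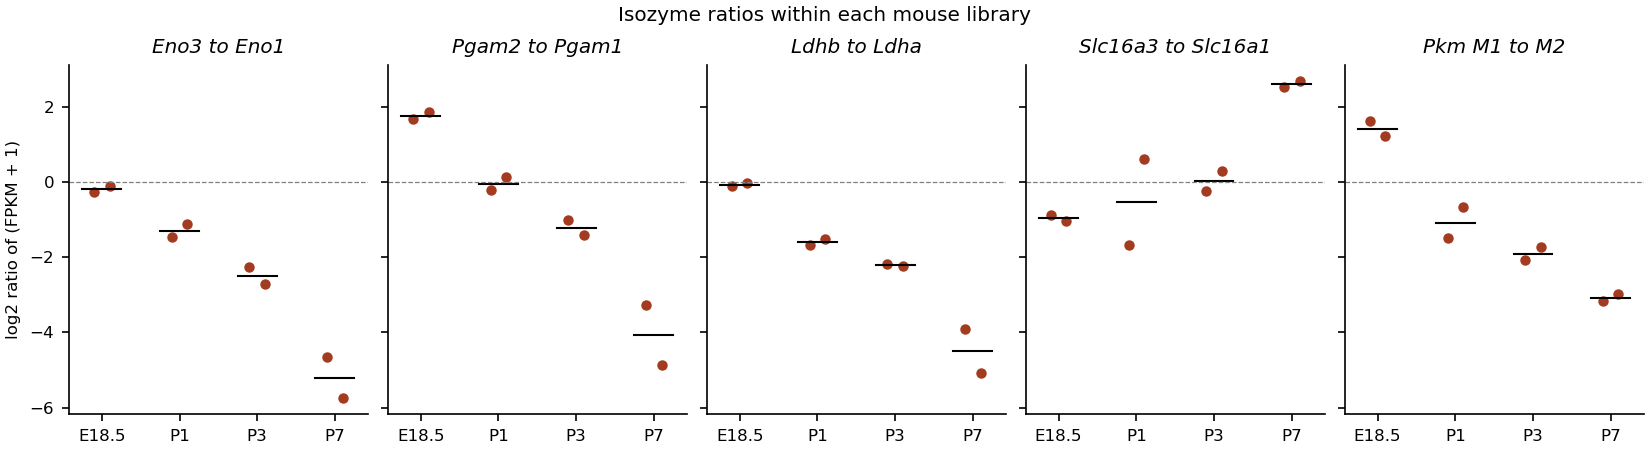
Log2 ratio of (FPKM + 1) between paired isozymes within each mouse library (points, 2 per time point; bars are means; the dashed line marks equal levels). The Pgam2 to Pgam1 ratio crosses from a mean of 1.77 at E18.5 to -4.07 at P7, and the P1 libraries stand apart for Slc16a3 to Slc16a1.

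The splice forms of Pkm traded places while the total stayed under the fold required. Transcripts with the M1 exon were at 555 and 596 FPKM in the E18.5 libraries, 225 and 371 in those of P1, 194 and 230 in those of P3, and 112 and 125 in those of P7. Transcripts with the M2 exon were at 180 and 254, then 639 and 587, then 821 and 762, then 1016 and 992. The M1 share of both forms was therefore 75.5 and 70.1% in the E18.5 libraries, 26.1 and 38.7% in those of P1, 19.1 and 23.2% in those of P3, and 9.90 and 11.2% in those of P7. No time point overlapped another. The log2 ratio of M1 to M2 went from a mean of 1.42 to -3.08, with an adjusted p of 0.0119 in the same exact permutation test. Transcripts with neither full exon, 2.67 to 4.66% of Pkm, were left out. Because FPKM of transcripts that share most exons were estimated by the assembler, counts over the exons themselves were not analysed here.

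**Figure D3:**
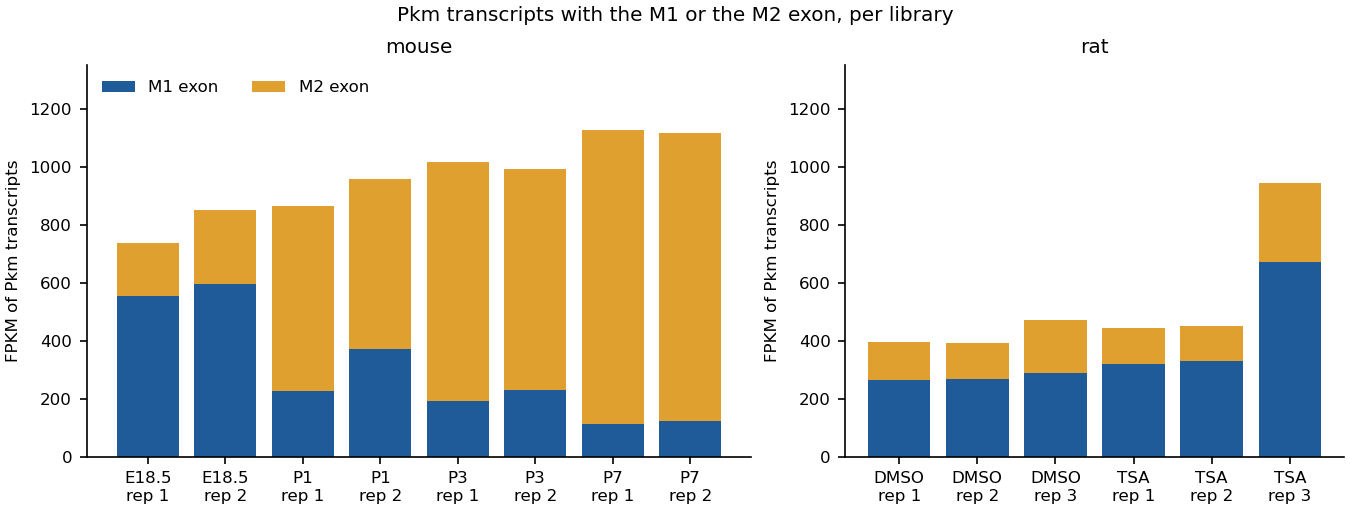
FPKM of Pkm transcripts holding the M1 exon (blue) or the M2 exon (orange), stacked, for each mouse library (left) and each rat library (right). In the mouse the M1 share goes from 75.5 and 70.1% at E18.5 to 9.90 and 11.2% at P7, while in the rat M1 is the larger form in all 6 libraries.

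The levels of the falling genes, of Pkm M1 and of Ldha were set beside the cardiomyocyte markers of the same library, a scale chosen after the values were seen. Eno3 lay between 18.2 and 21.7 FPKM per 1000 FPKM of the summed markers in all 8 libraries. Pgam2 lay between 13.1 and 17.5 on that scale, with the E18.5 libraries at 17.5 and 16.0 and the P7 libraries at 15.4 and 13.4. Ldhb was at 30.5 and 31.2 in the E18.5 libraries, 16.4 and 15.7 in those of P1, 19.0 and 20.8 in those of P3, and 25 and 28.7 in those of P7, so that its P1 and P3 libraries lay below those of E18.5 and P7. Pkm M1 was at 22.4 and 19.1 at E18.5, 18.4 and 19.7 at P1, and 51.6 and 130 at P7. Aldoa was at 63.8 and 63.1 at E18.5 and at 383 and 878 at P7, and Ldha at 33.1 and 31.6 and then 382 and 1014. Slc16a1 was at 1.68 and 1.38 at E18.5 and at 6.28 and 14.2 at P7, higher on this scale though called lower in FPKM. The median log2 change of the 15 cardiomyocyte markers at P7 was -3.77, near those of Pgam2, Eno3 and Ldhb.

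The rising genes were set beside the fibroblast markers in the same way. Pgam1 was at 274 and 279 FPKM per 1000 FPKM of those markers at E18.5 and at 105.9 and 105.5 at P7. Eno1, which was not called at P7, was at 1101 and 1250 at E18.5 and at 343 and 305 at P7. Both were lower at P7 than at E18.5 on this scale. Slc16a3 was at 45.0 and 41.5 in the E18.5 libraries, 6.21 and 35.4 in those of P1, 10.5 and 12.4 in those of P3, and 27.0 and 24.2 in those of P7. Pkm M2 was at 369 and 517 in the E18.5 libraries, 493 and 393 in those of P1, 484 and 442 in those of P3, and 328 and 259 in those of P7, so that its first 3 ages overlapped and the P7 pair lay lowest. The median log2 change of the fibroblast markers at P7 was 2.71. Skeletal muscle markers were mostly absent, with 3 of 12 passing the filter.

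The genes whose levels followed each isozyme most closely across the 8 mouse libraries were taken by Pearson's r of log2(FPKM + 1), as a description with no test. For Eno3 these were Dhrs7c (0.999), Actn2 (0.998) and Actc1 (0.998), and for Pgam2 they were Myoz2 (0.999), Myl3 (0.998) and Mb (0.998). For Ldhb they were Asb11 (0.998), Myzap (0.998) and Csrp3 (0.997). Actn2, Actc1, Myoz2, Myl3 and Csrp3 encode sarcomere proteins and Mb encodes myoglobin. For Ldha the closest were Mx2 (0.943), Bnip3 (0.943), a mitophagy receptor induced by low oxygen, and Tslp (0.935). All 8 points share the ages and the shift in markers given above.

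The other glycolytic genes had smaller log2 changes than the muscle isozymes. Of 18 listed, 15 passed the filter, and 4 were called lower and none higher at P7 against E18.5, beside 12.3% and 15.4% of all genes tested. The 3 with the largest falls were Pfkm, the muscle phosphofructokinase, from a mean of 120 to 14.2 FPKM (-2.98), Aldoc (-2.45) and Pfkp (-1.31). Of 13 genes for the entry of pyruvate into mitochondria, 11 were called lower at P7, beside 12.3% of genes tested, and none higher. The part of the fall in cardiomyocyte markers in these calls was not tested. Pdk2 and Pdk4, kinases that switch off pyruvate dehydrogenase, each had a log2 change of -3.20, and Pdhb, a subunit of that enzyme, one of -2.73. Of 11 hypoxia response genes, 5 were called higher at P7, beside 15.4% of genes tested, and none lower. The largest rises were those of Adm (3.43), Egln3 (1.84) and Slc2a1 (1.54), a glucose transporter. At P1, 2 of the 11 were called higher and 3 lower, beside 10.1% and 6.06% of genes tested. At P3, 2 were called higher and 4 lower, beside 13% and 8.88%. Of 10 genes of dissociation and stress, 10 were called lower at P1 and 7 at P7, beside 6.06% and 12.3% of genes tested. The largest falls at P7 were those of Hspa1a (-4.69), Fosb (-4.58) and Fos (-4.17).

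Accessible chromatin near the starts of the 10 genes was read from the peak lists of the 8 ATAC-seq libraries. A gene was counted where the midpoint of a peak lay within 2.5 kb of any of its transcript starts. The lists held from 13149 to 95257 peaks, so counts are read beside the share of all 13979 genes counted in the same library. At E18.5, 8 and 8 of the 10 genes had a peak, beside 66.9% and 62.3% of genes. At P1 it was 9 and 6, beside 69% and 42.9%. At P3 it was 10 and 10, beside 91.5% and 87.4%, and at P7 10 and 10, beside 86.3% and 85.3%. When the 13149 best-scored peaks of each list were used, P3 replicate 1 held 4 of the 10 genes, beside 40.3% of all genes.

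**Figure D4:**
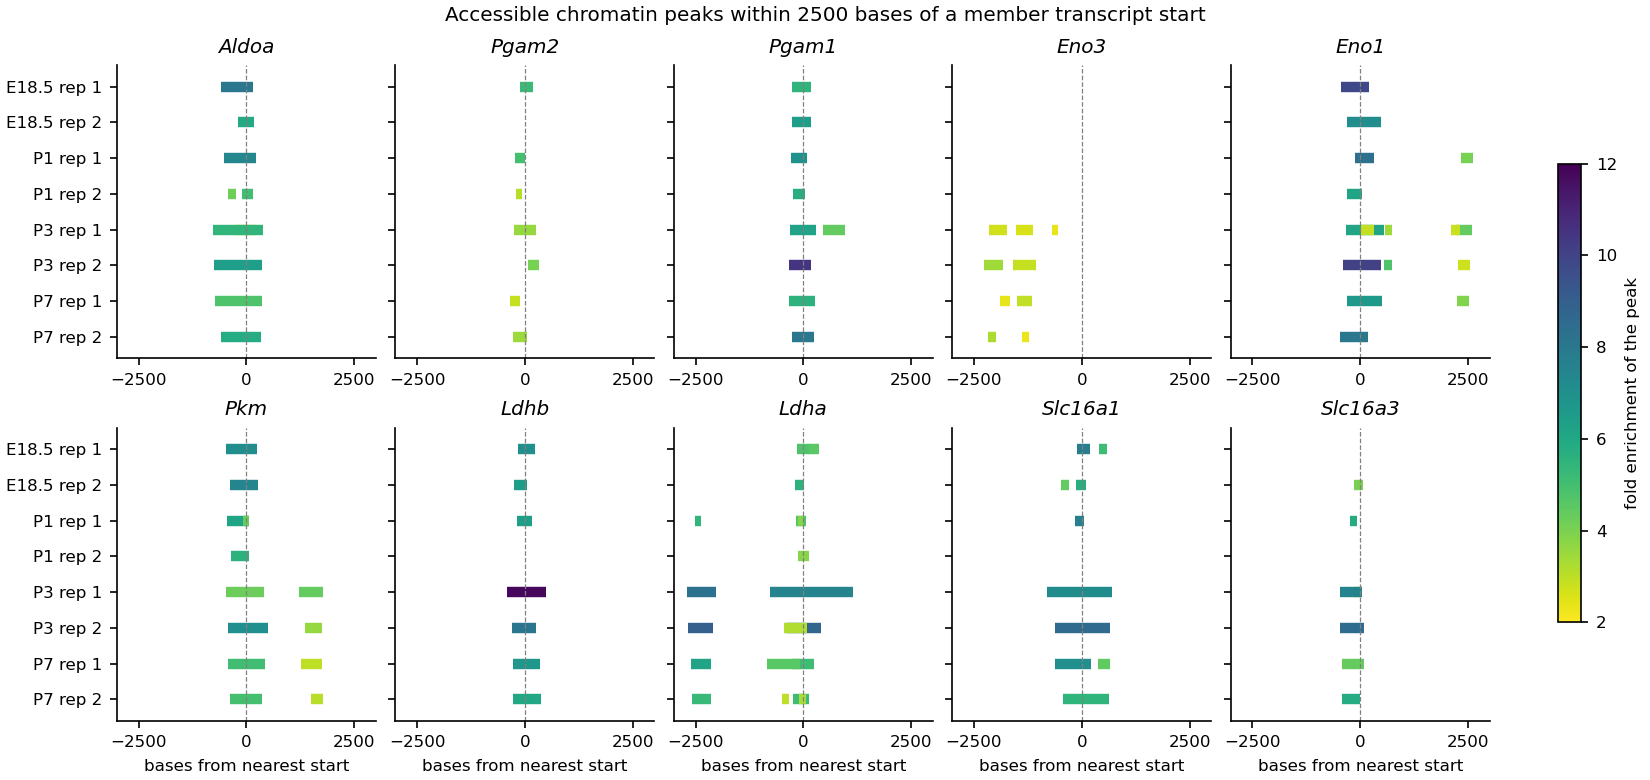
Peaks whose midpoint lay within 2500 bases of a transcript start of each gene, by library (rows) and distance from the nearest start along the gene's strand (horizontal axis, bases); colour gives fold enrichment. Eno3 has no peak in the shorter lists of E18.5 and P1 and low-ranked peaks only upstream of its start at P3 and P7, while Eno1, Pgam1, Pkm, Ldha and Aldoa have a peak in all 8 libraries.

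Eno1, Pgam1, Pkm, Ldha and Aldoa had a peak in all 8 libraries. Around the Ldha start printed above, a peak overlapped the 250 bases in all 8 libraries, and a further peak some 2.4 kb before the first annotated Ldha start, at chr7:46838775-46839456 in P3 replicate 1, was listed for 5 libraries, all of P3 and P7 with P1 replicate 1 added. The peak at Pkm spanned chr9:59655899-59656623 in E18.5 replicate 1 with a fold enrichment of 7.12. A second Pkm peak, further into the gene, was listed at P3 and P7, at chr9:59659458-59660027 in P3 replicate 1. Its midpoint lay about 1.5 kb past the nearest annotated transcript start, which is not the start at the first peak.

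Eno3 had no peak within the window at E18.5 or P1, when its RNA was highest. At P3 and P7 its peaks had midpoints at -2082 to -617 bases from the nearest start (negative is upstream) and fold enrichments of 2.29 to 3.43, and no peak overlapped the 250 bases printed. Those peaks ranked between 19208 and 85704 in their lists, while the E18.5 and P1 lists held only 13149 to 29281 peaks. Peaks this weak could thus be missing from the shorter lists, and a change in access at Eno3 was not tested. Pgam2 had a peak in 7 of 8 libraries, all but E18.5 replicate 2, with fold enrichments of 2.88 to 5.22. In 6 libraries the peak overlapped the printed Pgam2 window. The E18.5 replicate 1 peak, at chr11:5803534-5803855, reached the window but neither its CAGCTG nor its MEF2 match. In the rest of these libraries the peak spanned both matches. Ldhb had a peak in 7 libraries, all but P1 replicate 2, with fold enrichments of 6.05 to 11.8, the highest in P3 replicate 1 at chr6:142507308-142508227. Its promoter was thus listed as accessible at P7, when Ldhb RNA was lowest.

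Slc16a1 had a peak at its start in 7 libraries. At Slc16a3 the listed peaks lay near different starts. E18.5 replicate 2 held one at chr11:120948901-120949106, ranked 12950 in its list of 14910 peaks, and P3 replicate 1 held one that overlapped it. P1 replicate 1 and all 4 libraries of P3 and P7 held one further into the gene, with fold enrichments of 4.37 to 8.56. In P7 replicate 1 it lay at chr11:120950711-120951231. P3 replicate 1 thus listed both. E18.5 replicate 1 and P1 replicate 2 listed none. Fold enrichments are given within each list and were not tested between ages.

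In the rat cells, the 2 libraries numbered 3 stood apart from the others in both groups before any comparison. Cardiomyocyte markers summed to 19250 FPKM in DMSO replicate 3 and 25890 in TSA replicate 3, against 10880 to 12230 in the other 4. Fibroblast markers summed to 3909 in TSA replicate 3 against 6159 to 7588 in the others, and 10 hypoxia response genes to 1047 against 317 to 405. Their part in the rat results was not tested. Log2 differences of the 10 genes are given with and without both of these libraries. Rat libraries with the same number also deviated together, so differences are also given within pairs of 1 DMSO and 1 TSA library each. The labels do not state such a pairing. The main limma fit, with its SE and adjusted p-values, does not take the pairing into account. The overlap of the groups and the exact permutation test over all 6 libraries do not either.

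None of the 10 genes was called between TSA and DMSO by limma, beside 2.13% of the 13625 rat genes tested, and none had an unadjusted p under 0.05. The count was also 0 with voom, with the replicate number as a block and without both libraries numbered 3. Without those libraries Eno1 and Slc16a3 had adjusted p-values of 0.0232 and 0.0221 at log2 differences of 0.28 and 0.66, under the fold required. With 3 libraries against 3 the exact permutation test cannot go below 0.1. Within the same-numbered pairs, 7 of the 10 genes were higher with TSA in all 3, beside 28.9% of genes tested: Aldoa, Pgam1, Eno1, Pkm, Ldhb, Slc16a1 and Slc16a3. An exact permutation test within 3 pairs, added after the values were seen, gave p = 0.25 for each of these 7, the smallest it can give. Eno3, Pgam2 and Ldha were higher with TSA only in the pair numbered 3.

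**Figure D5:**
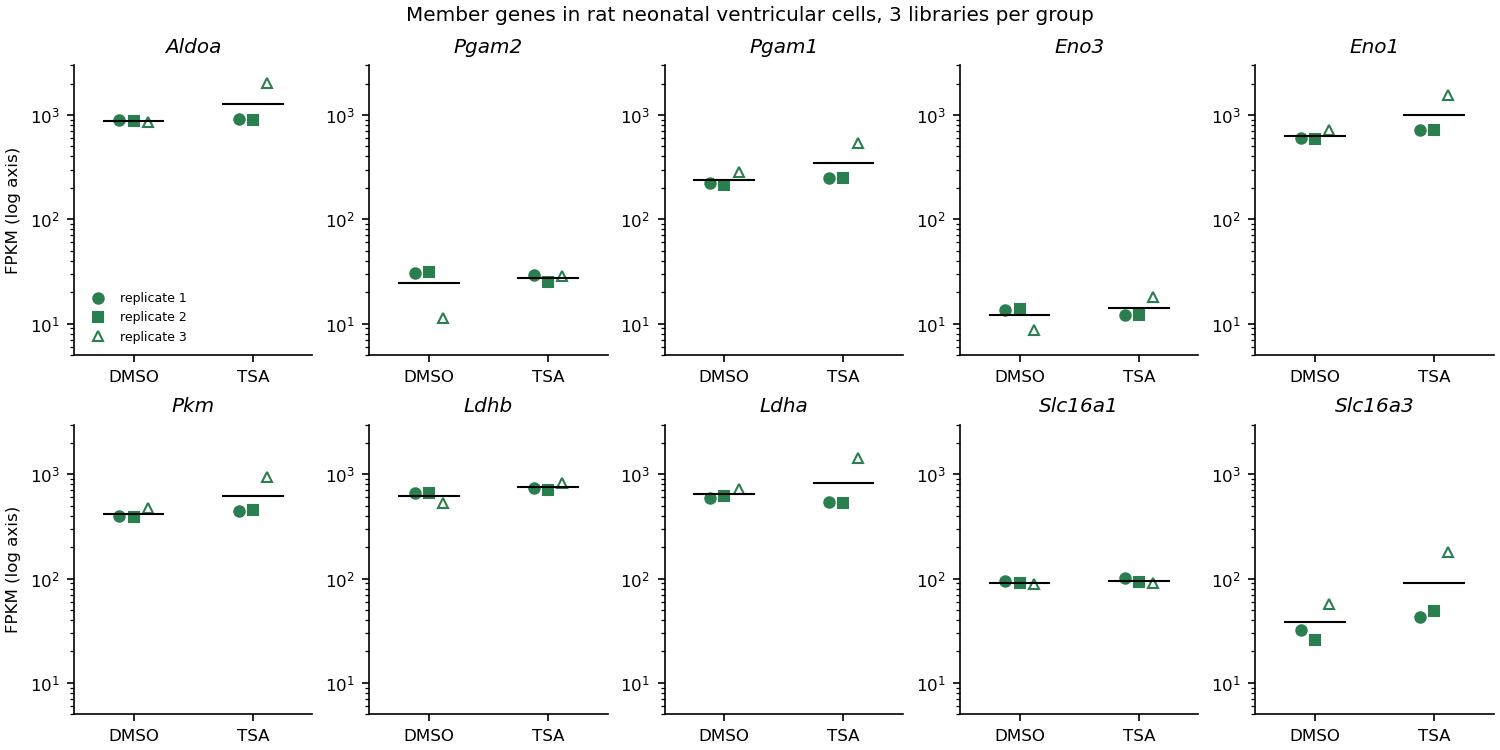
FPKM on a log axis of the 10 genes in rat ventricular cells given DMSO or TSA; symbols mark the replicate number (open triangles, replicate 3) and bars the means of 3 libraries. TSA replicate 3 lies far above the other TSA libraries for Aldoa, Eno1, Pgam1, Pkm, Ldha and Slc16a3.

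Eno1 was at 605, 588 and 712 FPKM with DMSO and 725, 720 and 1566 with TSA. The groups did not overlap, and the exact permutation p was 0.1. Its log2 difference was 0.56 (SE 0.31, adjusted p = 0.374), and 0.28 without both libraries numbered 3. Ldhb was at 656, 657 and 528 FPKM with DMSO and 738, 700 and 819 with TSA, again without overlap and with an exact permutation p of 0.1. The log2 difference was 0.30 (SE 0.13, adjusted p = 0.268) and 0.13 without those libraries.

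Slc16a3 had the largest difference of the 10, at 31.9, 25.9 and 57.3 FPKM with DMSO and 42.9, 49.0 and 178 with TSA. The groups overlapped, while TSA was the higher library in each of the 3 pairs, by 0.42, 0.89 and 1.62 on the log2 scale. Each library placed its Slc16a3 reads almost wholly in 1 of 2 transcripts, so only the sum is used. That transcript was ENSRNOT00000054939 in DMSO replicates 1 and 2. In DMSO replicate 3 and all TSA libraries it was ENSRNOT00000086096. FPKM is scaled by transcript length, and the part of this change of transcript in the differences, with or without the libraries numbered 3, was not tested. The log2 difference was 0.98 (SE 0.56, adjusted p = 0.403), and 0.66 without both libraries numbered 3.

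Ldha was at 598, 617 and 721 FPKM with DMSO and 548, 534 and 1418 with TSA. The sign of its difference, 0.21 on the log2 scale, turned to -0.17 without both libraries numbered 3. Pgam2 turned likewise, from 0.30 to -0.18, and Eno3 from 0.21 to -0.17. Pgam2 was at 30.5, 30.9 and 11.4 with DMSO and 29.2, 24.9 and 28.5 with TSA, and Eno3 at 13.5, 13.9 and 8.63 and at 12, 12.1 and 17.8. The groups overlapped for both muscle isozymes.

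The other 4 genes had adjusted p-values of 0.457 to 0.824. Aldoa was at 900, 870 and 847 FPKM with DMSO and at 912, 889 and 2046 with TSA. Pgam1 was at 222, 214 and 286 and at 248, 249 and 536. Slc16a1 was the steadiest, at 94.7, 90.8 and 88.8 and at 102, 92.2 and 90.0. Pkm was at 395, 392 and 470 and at 444, 450 and 945. The log2 differences of Aldoa, Pgam1, Pkm and Slc16a1 were 0.44, 0.43, 0.46 and 0.05, and without both libraries numbered 3 they were 0.03, 0.19, 0.18 and 0.06.

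In the rat the M1 exon, at chr8:64498948-64499114 of rn6, was the larger Pkm form in all 6 libraries. Its share was 67.0, 68.7 and 61.6% with DMSO and 72.0, 73.1 and 71.2% with TSA. The groups did not overlap, with or without the libraries numbered 3, the share was higher with TSA in all 3 pairs, and the exact permutation p of the log2 ratio was 0.1, with 0.5 after adjustment over 5 ratios. The other 4 ratios had exact permutation p-values of 0.3 to 1. Fresh mouse cells taken at the same age were at 26.1 and 38.7%. They were of another species and were not cultured, while the rat cells were kept in culture before harvest. The difference was not tested.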

How the data were processed

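The authors mapped mouse reads to mm10 and rat reads to rn6 with HISAT2 2.1.0 and estimated transcript FPKM with StringTie 1.3.5, against GENCODE vM21 (mouse) and an Ensembl annotation (rat), as the deposited transcript tables record; per the file headers the rat tables came from StringTie 1.3.4d. They called ATAC-seq peaks per library with MACS2, and the deposited peak lists give a score, a fold (ratio over background) and −log10 p- and q-values. Gene FPKM is the sum over a gene's transcripts; a second mouse gene identifier named Aldoa, at 0.213 to 0.625 FPKM, was left out. Differences were tested with limma 3.58.1 in R 4.3.3 (trend, two-sided, Benjamini-Hochberg) on log2(FPKM + 1), 8 mouse libraries in 1 fit and 6 rat libraries in another; genes needed 1 FPKM in 2 mouse or 3 rat libraries. A fold change on this scale understates the change of low genes. The fit was tested on simulated data. Isozyme ratios were tested by exact permutation of libraries, two-sided by construction; for the rat genes a permutation within same-numbered pairs was added after the values were seen.

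Rat replicate numbers were taken as pairs, which the labels do not state, for the differences within pairs and the replicate block, not in the main fit. Deviations of same-numbered libraries from their group means correlated at 0.22, 0.19 and 0.35. For DMSO and TSA libraries numbered 1 and 2 crosswise, the correlations were 0.09 and 0.17. Libraries numbered 3 correlated with those numbered 1 and 2 of the other group at -0.27 to -0.20. The 10 genes and the other lists were chosen with earlier results of these data known. All 10 genes are named; of other lists, up to 3 called genes per direction with the largest change at P7 against E18.5 and TSA against DMSO. Alternatives were a pseudocount of 0.1, no filter, a mean of at least 5 FPKM, TPM, median-of-ratios scaling, voom on estimated reads, a replicate block, 2 time points only and leaving out each library. HiChIP samples were not analysed here.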

Additional observations from a re-analysis of the deposited data

How the results depend on the processing

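The number of the 10 genes called at P1 against E18.5 was 1 as reported, beside 16.2% of genes tested called in either direction. It was 2 in TPM, 4 with median-of-ratios scaling, 2 with voom, 2 with the replicate block and 2 with only the 2 time points fitted, and 1 to 3 without 1 library: 3 without P1 replicate 2, and 2 without E18.5 replicate 1, P1 replicate 1 or either P7 library. With all libraries kept, the calls added beside Ldhb were Pgam2, Eno3, Aldoa or Pgam1, depending on the setting. The counts of calls at P3 and P7 against E18.5, at P7 against P1 and with TSA against DMSO stayed within 1.5 times the reported count under every alternative run. P3 against P1 and P7 against P3 were not run under the alternatives. Slc16a3 at P1 against E18.5 was -0.01 as reported, 1.28 without P1 replicate 1 and -1.29 without P1 replicate 2. The difference from E18.5 to P7 in the Slc16a3 to Slc16a1 ratio was 3.58 on the log2 scale as reported, and 3.50 to 3.66 without 1 library. That ratio passed the threshold only without a P1 library. The promoter count was 4 in P3 replicate 1 with equal numbers of top peaks, beside 40.3% of all genes. It was 5 in E18.5 replicate 1 with only the better-scored part of its list, beside 43.1%. The cause of these shifts was not tested.

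In the mouse, libraries of different ages shared only a number, with correlations of deviations of -0.10 to 0.17, and the replicate block changed no other call than Pgam2 at P1 (adjusted p = 0.0489). In the rat the block changed no call. The median log2 change of all genes at P7 was 0.15 in FPKM, 0.35 in TPM and -0.01 with median-of-ratios scaling. Of all calls at P1, P3 and P7 against E18.5, 62.5, 59.4 and 55.7% were higher as reported, 74.3, 71.9 and 65.7% in TPM and 45.7, 45.7 and 45.5% with median-of-ratios scaling. With 2 libraries per time point, the spread is poorly known, and depth in the peak lists limits what a missing peak shows.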
